A study of Mus musculus with 9 samples.

Results

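The CTCF sites described here were those that carried a peak in every library of the study and had no other CTCF site nearby. Overlapping peaks of the 8 CTCF lists on chromosomes 1 to 19, sharing 1 bp or more, were joined into 38586 merged regions, and 9363 of these (24.3%) had a peak in all 8 lists; they are called constitutive below. A constitutive region was taken as isolated when no other merged region, from any list, had its midpoint within 50 kb of its own midpoint. This left 748 isolated constitutive regions, which were 7.99% of the constitutive regions (exact Clopper-Pearson 95% interval 7.45% to 8.56%, counting error only) and 1.94% of all merged regions. Presence in the lists and distance chose these regions, so both are given as descriptions. The strength of the peaks was not part of the rule beyond the need to be listed.

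CTCF is a zinc-finger protein that binds a long DNA motif and halts the cohesin complex as it extrudes chromatin loops, so that loops often end at pairs of CTCF sites. Clusters of sites mark many borders of topologically associating domains, while a lone site has no close partner. Sites bound in most cell types usually hold strong matches to the motif, and sites bound in few conditions are usually weaker. The sequence under these regions and the genes around them are not described here, because a genome and an annotation of mm9, the build of the peak lists, were not used here.

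The cells were CD8+ T cells sorted from mouse spleen as GFP+ TCRbeta+ CD62Lhi CD44lo-med, the surface pattern of naive cells. Animals of both genotypes carried hCD2-Cre, a recombinase under the human CD2 promoter that is active in lymphocytes, and Rosa26-lsl-GFP, a reporter that turns green after recombination. In the WT groups the genes for Tcf1 and Lef1, HMG-box factors of the T cell lineage, were wild type, and in the DKO groups both were floxed and the cells are labelled Tcf1-/-Lef1-/-. Cells were taken at 0 h or kept for 72 h in IL-7 plus IL-15, cytokines that keep T cells alive, after which live cells were used. CUT&RUN, in which an antibody brings a nuclease to the bound protein, gave 2 CTCF libraries for each of the 4 groups (WT 0 h, DKO 0 h, WT 72 h, DKO 72 h), and a single IgG library, without CTCF antibody, came from the WT 0 h cells. Age, sex and pooling of animals were not given in the labels used here, and nothing says that replicates came from separate animals, so the spread between replicates may be technical.

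The lists held 29570 to 31798 autosomal peaks at 0 h and 10078 to 25940 at 72 h. DKO 72 h replicate 1 was the shortest. Of 388 isolated regions with a peak in 7 lists, 365 (94.1%) lacked it in that list, against 92.3% of all 4452 regions found in 7 lists. Without that library, 1113 regions met the rule. Read totals are not known, so no counting interval can be given for the strength of a peak. The IgG list had 2 autosomal peaks, and 0 isolated constitutive regions overlapped them.

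The isolated share was similar for sites seen in few and in many libraries. Among the 9363 constitutive regions the isolated share was 7.99%, and over all 38586 regions it was 8.07%. The share ran from 6.46% (5.74% to 7.23%) for regions in 4 lists to 8.72% (7.90% to 9.58%) for regions in 7 lists, and was 8.65% (7.93% to 9.42%) for regions in 1 list.

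Isolated constitutive sites were of moderate strength. The authors' fold enrichment of a peak over its local background had a median over the 748 regions of 21.5 and 19.9 in the WT 0 h libraries, 19.98 and 21.6 in DKO 0 h, 9.89 and 15.4 in WT 72 h, and 7.02 and 9.89 in DKO 72 h, in the order of replicates 1 and 2. These values belong to separate lists and are not compared between libraries. To set libraries side by side, each region was ranked by its fold among the same 9363 constitutive regions within each library, from percentile 0 (weakest) to 100 (strongest). The isolated regions had a median percentile of 45.3 and 45.2 for WT 0 h and 38.5 and 41.1 for DKO 0 h. It was 47.0 and 46.8 for WT 72 h and 46.9 and 47.0 for DKO 72 h. The other 8615 constitutive regions had medians between 50.02 and 50.9. The isolated sites therefore ranked lower in all 8 libraries, with a difference of -5.27 to -3.25 points in 6 of them and of -12.4 and -9.73 points in the DKO 0 h libraries. By group, the mean of the library medians was 45.2 ± 0.106 (SD, n = 2) for WT 0 h, 39.8 ± 1.90 (n = 2) for DKO 0 h, 46.9 ± 0.155 (n = 2) for WT 72 h and 47.0 ± 0.0434 (n = 2) for DKO 72 h. The DKO 0 h libraries lay below the other 6. Because the regions were chosen with earlier results known, no p-value is given for a summary over them, and each comparison with other constitutive regions is a description.

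**Figure D1:**
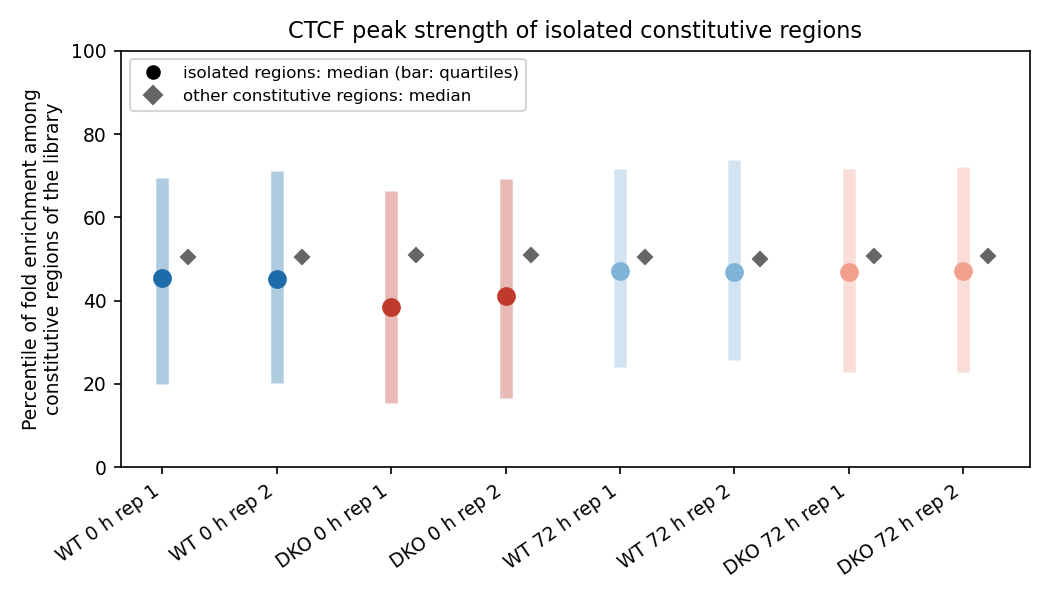
Percentile of fold enrichment of the 748 isolated constitutive regions in each library (x axis: library; y axis: percentile among the 9363 constitutive regions, 0 to 100). Circles are medians, bars run from the lower to the upper quartile and diamonds are medians of the other 8615 constitutive regions; the isolated medians lie below the diamonds in all 8 libraries and lowest, at 38.5 and 41.1, in DKO at 0 h.

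The low rank at 0 h went with the number of neighbours in steps. Constitutive regions were grouped by the number of other merged regions within 50 kb. In DKO 0 h replicate 1 the median percentile was 38.5 with 0 neighbours, 45.7 with 1, 50.4 with 2, 51.1 with 3 to 4 and 52.5 with 5 or more. In DKO 0 h replicate 2 these medians were 41.1, 47.3, 50.3, 50.9 and 51.6. In WT 0 h replicate 1 they were 45.3, 48.4, 51.8, 51.2 and 50.3, so the rise stopped at 2 neighbours. At 72 h the step lay between 0 and 1 neighbour: in WT 72 h replicate 1 the medians were 47.0 and 51.2, and in DKO 72 h replicate 1 they were 46.9 and 50.3. All medians with 1 or more neighbours at 72 h lay between 49.1 and 52.7.

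**Figure D2:**
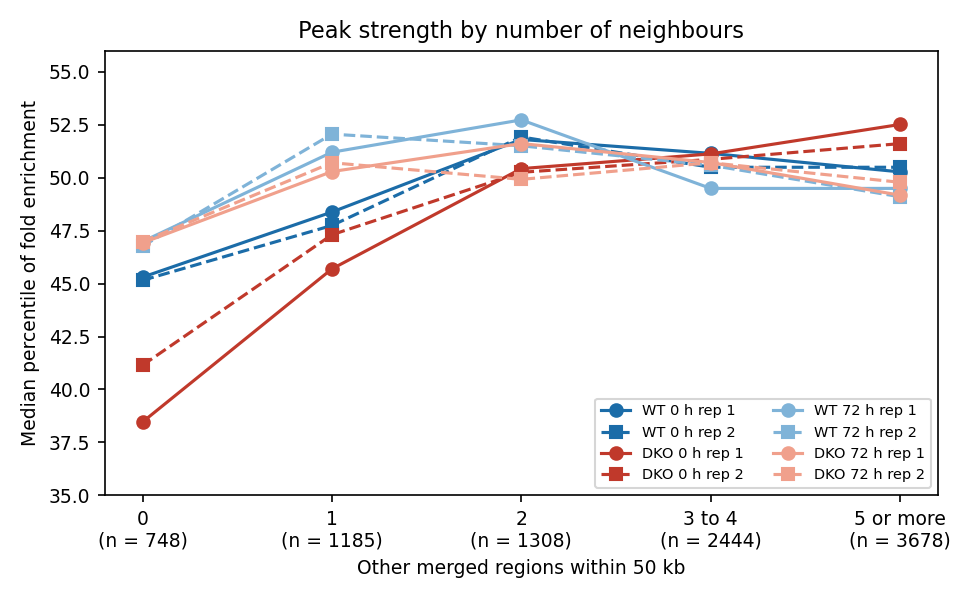
Median percentile of fold enrichment (y axis) of constitutive regions grouped by the number of other merged regions within 50 kb (x axis, with the number of regions in each class); each line is 1 library. The isolated class, at 0 neighbours, is the lowest in all 8 libraries, and the 2 DKO 0 h lines start lowest, at 38.5 and 41.1, and end highest, at 52.5 and 51.6.

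At greater distances the rank in DKO cells at 0 h was mostly lower still. The 342 isolated regions whose nearest neighbour lay 50 to 75 kb away had a median percentile of 46.0 for WT 0 h and 42.1 for DKO 0 h, taken on the mean of both replicates. The 170 regions at 100 to 200 kb had 46.8 in WT and 35.9 in DKO, and the 68 regions at 200 to 500 kb had 39.1 and 34.1. The 15 regions more than 500 kb from any other had 36.1 for WT 0 h and 27.3 for DKO 0 h, and 48.5 and 45.2 at 72 h. The class at 75 to 100 kb (153 regions) did not follow this order, with 41.7 for WT 0 h and 44.6 for DKO 0 h.

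Strength nevertheless spanned the whole scale. The constitutive set was cut into 4 classes of 2340 or 2341 regions by mean percentile over the 8 libraries. From the weakest class to the strongest, they held 223 (29.8%), 194 (25.9%), 181 (24.2%) and 150 (20.1%) of the isolated regions. The strongest was chr2:146783964-146785857, 1894 bp wide, with neighbours 59.9 kb and 53.4 kb away. Its fold was 120 and 113 in WT 0 h, 164 and 151 in DKO 0 h, 59.6 and 78.0 in WT 72 h and 35.7 and 50.3 in DKO 72 h, and its percentile was 99.99 in 5 libraries and 100 in the other 3. It was thus at the top of the constitutive set in every condition. The next were chr11:89026057-89027080 (mean percentile 99.3), chr6:50886827-50889887 (99.2), chr13:20129928-20131487 (99.1) and chr12:99912345-99914168 (98.9), whose percentiles ranged over 1.02, 1.26, 1.33 and 1.22 points between the 8 libraries.

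The lowest isolated sites were near the bottom of the constitutive set in most libraries. At chr6:35012209-35012997 the percentile was 0.620 and 0.336 in WT 0 h and 0.801 and 0.198 in DKO 0 h, with 10.1 and 3.49 in WT 72 h and 0.128 and 4.72 in DKO 72 h. DKO 72 h replicate 1 was the lowest of the 8, so the times overlapped. At chr5:9427510-9428143 the 0 h values lay between 0.764 and 1.20, and the 72 h values were 8.14, 0.929, 2.83 and 7.88. The other 3 of the 5 weakest were chr7:49915341-49916170 (mean percentile 3.09), chr17:74484007-74484980 (3.44) and chr9:33054342-33055304 (3.63). The lowest fold among these 5 sites was 4.05, at chr6:35012209-35012997 in DKO 72 h replicate 1.

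The merged regions were slightly narrower than other constitutive regions, and their summits were spread slightly more widely. Merged width had a median of 1021 bp (quartiles 862 and 1198 bp), against 1067 bp (907 and 1339 bp) for the other constitutive regions, and ranged from 399 to 3347 bp. Each list gave exactly 1 peak at 724 of the 748 regions (96.8%), against 92.4% for the other constitutive regions. The summits of the 8 libraries spanned a median of 136 bp (quartiles 94 and 206 bp), against 128 bp elsewhere, and at 223 regions (29.8%) they spanned at most 100 bp. In the single lists the isolated peaks were narrower than other constitutive peaks at 0 h (medians 844 to 870 bp against 878 to 940 bp) and within 14 bp of them at 72 h.

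A few isolated regions held more than 1 summit. The widest were chr15:67005705-67009051 (3347 bp, 14 peaks over the 8 lists), chr13:105074691-105077915 (3225 bp, 13 peaks) and chr7:86871927-86875027 (3101 bp, 14 peaks). In the first the strongest summits lay within 46 bp, so all libraries named the same point. In the others they lay up to 1980 and 2272 bp apart, and at chr11:99324301-99326523 up to 1508 bp, so libraries differed in which part of the region was strongest. At chr7:86871927-86875027 the percentile was 53.3 in WT 0 h replicate 1 and 9.89 in replicate 2.

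The nearest other region lay at a median distance of 80.2 kb (quartiles 60.6 and 123 kb) from an isolated site, and the farther of its 2 flanks at 199 kb (111 and 431 kb). The nearest region was itself constitutive at 230 of the 748 sites (30.7%), against 27.4% for the other constitutive regions and a constitutive share of 24.3% over all regions. The nearest region that was constitutive lay at a median of 145 kb. At the limit of the rule, chr4:115575106-115575922 (nearest midpoint 50.1 kb), chr18:53516123-53517012 (50.1 kb) and chr10:93225686-93226539 (50.2 kb) were just inside, with mean percentiles of 47.2, 74.0 and 58.6. Just outside were chr12:9058514-9059501 and chr12:9008432-9009705, which were each other's nearest region at 49.9 kb, and chr16:22807299-22808138 (49.9 kb), with mean percentiles of 55.8, 54.6 and 46.7.

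The most remote site was chr1:143857919-143858929, with the next regions 2523 kb to one side and 1633 kb to the other. Its percentile was 38.1 and 34.0 in WT 0 h, 23.6 and 23.7 in DKO 0 h, 28.9 and 17.6 in WT 72 h and 24.4 and 14.5 in DKO 72 h, so the WT 0 h libraries were the highest of the 8. It was followed by chr5:10647688-10648535 (nearest region 1220 kb away), chr16:53266095-53267335 (955 kb), chr8:92308876-92309601 (924 kb) and chr5:48736731-48737514 (744 kb). The site chr5:10647688-10648535 had 38.4 and 32.6 in WT 0 h but 2.41 and 4.21 in DKO 0 h, and 47.0, 61.7, 64.4 and 55.1 at 72 h. The site chr8:92308876-92309601 had 14.4, 23.3, 4.12 and 8.74 at 0 h and 61.5, 49.1, 45.0 and 45.4 at 72 h. In both of these all 72 h libraries lay above all 0 h libraries.

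Most isolated sites had no other isolated constitutive site as the next region. They were only 1.94% of all merged regions, and the share in a row to be met in a random order was not computed. Of the 748, 581 (77.7%) had a region that was not an isolated constitutive site on each side, 140 (18.7%) formed 70 pairs and 27 (3.61%) formed 9 runs of 3. The longest runs were chr4:49701041-52740272 (3039 kb), chr5:9427510-12030589 (2603 kb) and chr18:21280311-23806122 (2526 kb). Sites within a run differed in strength: in the run on chromosome 4 the mean percentiles were 23.1, 11.3 and 75.7, in that on chromosome 5 they were 2.96, 38.2 and 45.9, and in that on chromosome 18 they were 71.2, 54.2 and 51.3.

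Chromosomes differed in the share of constitutive sites that stood alone. It was lowest on chromosome 11, with 32 of 812 (3.94%, 95% interval 2.71% to 5.52%), which also had the most merged regions per Mb (27.7). It was highest on chromosome 16, with 39 of 286 (13.6%, 9.88% to 18.2%), chromosome 13, with 48 of 356 (13.5%, 10.1% to 17.5%), and chromosome 18, with 34 of 266 (12.8%, 9.02% to 17.4%), which had 13.1, 12.6 and 11.97 merged regions per Mb. Other chromosomes with few merged regions per Mb had shares near that of all autosomes. Chromosome 3 had 11.9 merged regions per Mb and a share of 7.51%, and chromosome 14 had 12.4 and 8.36%. The densities of isolated sites per length were closer: chromosome 11 held 2.69 isolated sites per 10 Mb and chromosome 16 held 4.12. These intervals cover counting error over sites only.

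**Figure D3:**
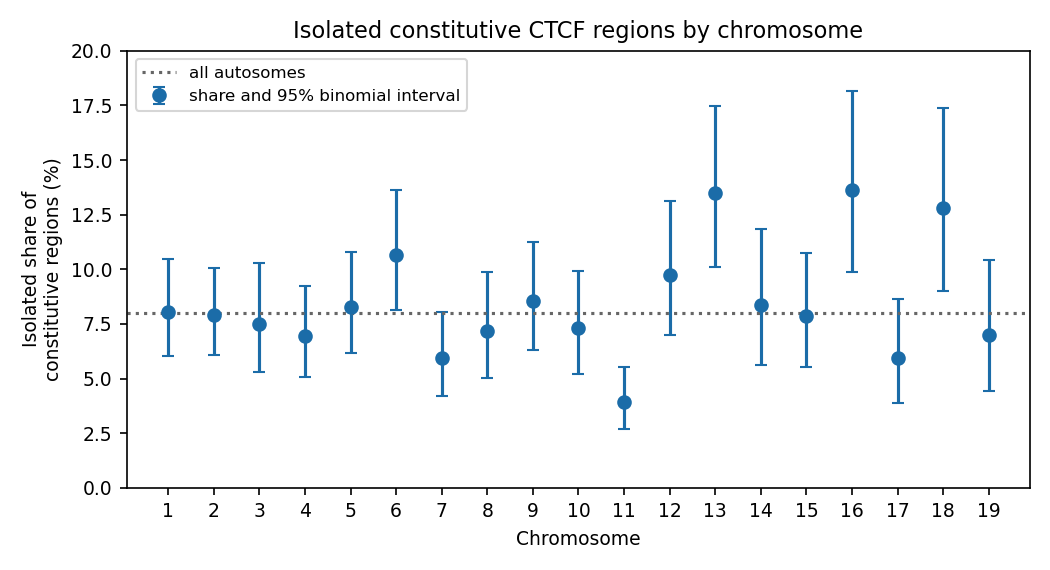
Share of constitutive CTCF regions that were isolated (y axis, percent) on each autosome (x axis), with exact 95% binomial intervals over regions; the dotted line is the share over all autosomes, 7.99%. Chromosome 11 lies lowest at 3.94%, and chromosomes 16, 13 and 18 lie highest at 13.6%, 13.5% and 12.8%.

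Comparison of 0 h with 72 h asked how CTCF binding at these sites stood before and after culture with cytokines. A region was counted when its 4 percentiles at one time all lay above the 4 at the other. Of the 748 isolated sites, 77 (10.3%, 8.21% to 12.7%) were higher at 72 h, where 6.81% of all constitutive regions were, and 32 (4.28%, 2.94% to 5.99%) were higher at 0 h, where 7.13% were. Isolated sites thus ranked higher at 72 h more often than lower, while both directions were near balance over all constitutive regions. When the groups had to be at least 10 points apart, 18 sites were higher at 72 h, and their share of 2.41% was near the 2.17% of all constitutive regions; 8 were higher at 0 h (1.07% against 1.60%). The 72 h lists were also shorter and their folds lower, as given above, and the part of this in the result was not tested. The median difference of 72 h minus 0 h over the isolated sites was 3.19 points, against -0.66 points over the other constitutive regions.

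Each such region had an exact two-sided permutation p of 0.0286, the smallest that 70 assignments of 8 libraries allow. After Benjamini-Hochberg adjustment over 9363 regions the smallest p was 0.205, and 0 regions passed 0.05, against 1306 with an unadjusted p under 0.05. With this floor a region could pass only if most of the 9363 regions reached it, so the adjusted values cannot decide for single sites. No single site can therefore be called changed. The count of 32 rose to 50 (9.75% over all constitutive regions) without WT 72 h replicate 2, where only 3 libraries at 72 h had to be apart from 4.

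The excess was seen in both genotypes. In WT, 219 sites (29.3%) had both 72 h percentiles above both at 0 h, against 23.3% of all constitutive regions, and 153 (20.5%) had the reverse, against 25.4%. In DKO, 257 (34.4%) were higher at 72 h, against 24%, and 120 (16.0%) higher at 0 h, against 24.8%. The median difference was 1.64 points in WT and 4.18 points in DKO. Replicates of 1 group differed by a median of 6.92 to 11.5 points per site, so these medians are small beside the spread of a single site.

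The balance between the times differed with the number of neighbours. The share higher at 72 h was 10.3% with 0 neighbours, 7.59% with 1, 6.42% with 2, 6.75% with 3 to 4 and 6.04% with 5 or more. The share higher at 0 h was 4.28%, 5.49%, 6.5%, 7.90% and 7.97% in the same order. Regions with 0 or 1 neighbour were thus more often higher at 72 h, and those with 3 or more at 0 h. The neighbours, and so isolation itself, were taken from the same 8 lists, of which those at 0 h were longer. The classes are therefore not independent of the times compared, and the part of this in the balance was not tested. The shares were also taken within the 4 classes of mean percentile, a mean over the same 0 h and 72 h values. In the weakest class, 13.0% of isolated sites were higher at 72 h and 1.79% at 0 h, against 8.59% and 5.68% of all constitutive regions. In the strongest class these shares were 8.67% and 7.33%, against 6.11% and 8.80%. In each class the isolated sites exceeded the share of all constitutive regions for 72 h and fell short of it for 0 h. The counts were small, with 29 and 4 sites in the weakest class and 13 and 11 in the strongest. The part of peak strength in the balance between the times was not tested.

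**Figure D4:**
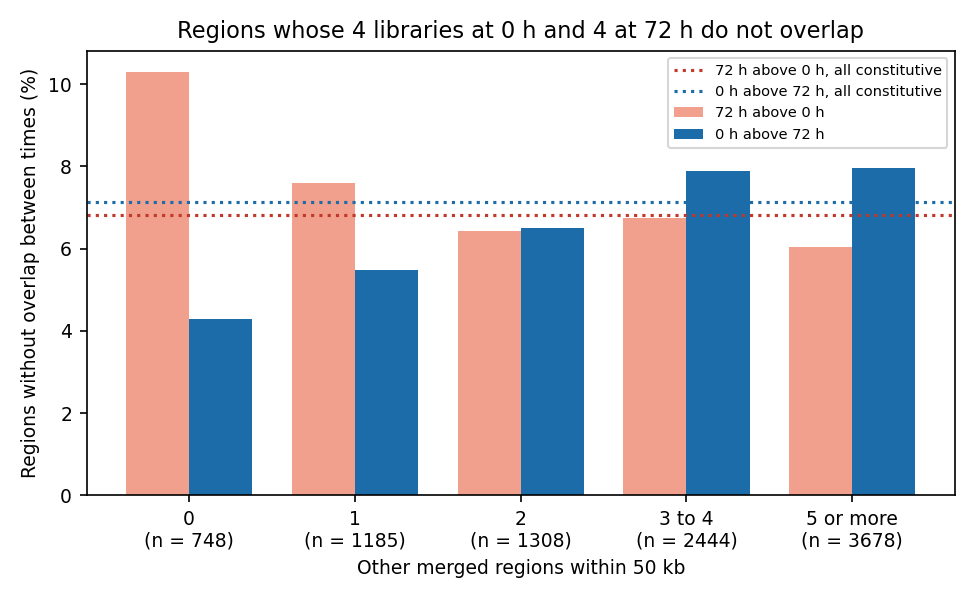
Percent of constitutive regions (y axis) whose 4 libraries at 72 h all ranked above the 4 at 0 h, or the reverse, by number of other merged regions within 50 kb (x axis); dotted lines are the shares over all constitutive regions, 6.81% and 7.13%. At 0 neighbours the bars stand at 10.3% and 4.28%, and at 5 or more neighbours at 6.04% and 7.97%.

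Among sites higher at 72 h the largest difference was at chr3:103297752-103298645, where the percentile was 45.4 and 48.1 in WT 0 h, 4.0 and 6.05 in DKO 0 h, 93.3 and 93.8 in WT 72 h and 74.3 and 66.1 in DKO 72 h. The mean was 25.9 ± 24.1 (SD, n = 4) at 0 h and 81.9 ± 13.9 (n = 4) at 72 h, and WT lay above DKO within each time. Here and below, n = 4 pools both genotypes at a time, or both times in a genotype. Such an SD holds the gap between the pooled groups as well as the spread between replicates. At chr8:84874923-84875884 the order of genotypes at 0 h was the other way, with 18.3 and 17.5 in WT and 48.5 and 59.5 in DKO, before 74.9, 87.2, 75.4 and 94.9 at 72 h. At chr13:18074951-18075724 the 0 h values were 21.5 to 38.5 and the 72 h values 66.7 to 86.9, with the genotypes overlapping at 72 h and DKO just above WT at 0 h. Next were chr1:165840228-165841064 (18.1 ± 18.3 at 0 h, 63.8 ± 4.77 at 72 h, n = 4 each) and chr3:104861628-104862513 (19.1 ± 14.5 and 63.6 ± 11.6).

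Among sites higher at 0 h the largest difference was at chr13:103695901-103697199, with 69.0, 63.9, 65.9 and 81.4 at 0 h, 35.3 and 31.8 in WT 72 h and 10.9 and 12.5 in DKO 72 h. The mean was 70.03 ± 7.88 (SD, n = 4) at 0 h and 22.6 ± 12.7 (n = 4) at 72 h. At chr9:3403024-3404097 the means were 59.6 ± 10.2 and 18.0 ± 7.17, and at chr13:91775646-91777383 they were 54.7 ± 8.91 and 15.3 ± 16.5, with DKO 72 h replicate 2 at 38.8 and close to the lowest 0 h value of 42.3. Next were chr1:24684753-24686220 (64.4 ± 8.27 and 26.2 ± 15.6) and chr15:9384766-9385554 (59.7 ± 12.3 and 24.9 ± 11.9). Over all 32 sites the median width was 1101 bp, against 940 bp for the 77 sites higher at 72 h.

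Comparison of WT with DKO asked how CTCF stood at these sites in cells without Tcf1 and Lef1. Over both times, 16 sites (2.14%, 1.23% to 3.45%) had all 4 WT percentiles above all 4 DKO percentiles, near the 2.38% of all constitutive regions, and 9 (1.20%, 0.552% to 2.27%) had the reverse, against 1.91%. The exact two-sided permutation p of each was 0.0286, the floor given above, and 402 constitutive regions had an unadjusted p under 0.05. The smallest Benjamini-Hochberg adjusted p was 0.665 and 0 regions passed 0.05, which the floor made almost certain in advance. None of these 25 sites was also among the 109 whose times did not overlap, as the same 8 libraries cannot be split both ways.

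Within 0 h, isolated sites lay more often higher in WT than in DKO. Counts of 2 libraries against 2 are a looser criterion than those over both times and are not compared with them. At 0 h, 206 sites (27.5%) had both WT libraries above both DKO libraries, against 20% of all constitutive regions, and 108 (14.4%) had the reverse, against 21%. At 72 h these numbers were 145 (19.4%), against 18.9%, and 128 (17.1%), against 18.8%. The median of WT minus DKO was 2.2 points at 0 h and 0.01 points at 72 h, and 450 of 748 sites (60.2%) were higher in WT at 0 h against 375 (50.1%) at 72 h. Replicates differed by a median of 6.92 points per site in WT 0 h and 7.46 in DKO 0 h, so the median at 0 h is small beside them. The difference between times was not tested. With 2 libraries against 2 the smallest exact permutation p is 0.333, so no p is given within a time.

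The number of sites apart by genotype changed when 1 library was left out, since 4 libraries then had to be apart from only 3, and the shares over all constitutive regions rose too. The 16 sites higher in WT became 36, 30, 25, 33, 41 and 36 without WT 0 h replicate 1, WT 0 h replicate 2, DKO 0 h replicate 1, WT 72 h replicate 1, DKO 72 h replicate 1 and DKO 72 h replicate 2. The share higher in WT, below that of all constitutive regions with all 8 libraries, was above it without some of them: 5.48% against 3.97% without DKO 72 h replicate 1, and 4.81% against 3.64% without WT 0 h replicate 1. The 9 sites higher in DKO became 15, 16, 19, 15, 17, 14 and 17 without WT 0 h replicate 2, DKO 0 h replicates 1 and 2, WT 72 h replicates 1 and 2 and DKO 72 h replicates 1 and 2. Without WT 0 h replicate 1 they became 12. Over all 8 omissions the share higher in DKO was 1.60% to 2.54%, below the 3.23% to 3.70% of all constitutive regions.

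The site with the largest genotype difference, chr2:117936693-117937484, stood apart from the rest. Its percentile was 66.8 and 78.1 in WT 0 h and 93.1 and 81.9 in WT 72 h, and 4.12 and 0.630 in DKO 0 h and 10.9 and 32.5 in DKO 72 h. The mean was 80.0 ± 10.8 (SD, n = 4) in WT and 12.04 ± 14.3 (n = 4) in DKO. A site in the upper part of the constitutive set in WT was thus near its bottom in DKO 0 h. In DKO 72 h it was also lower than in WT, and it still held a peak in every library. It was 792 bp wide, with neighbours 123 kb and 88.7 kb away.

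The other 4 leading sites higher in WT differed most at 0 h. At chr15:84981142-84982201 the percentile was 88.8 and 86.8 in WT 0 h, 24.1 and 31.8 in DKO 0 h, 81.4 and 95.01 in WT 72 h and 45.0 and 73.3 in DKO 72 h. At chr12:38856406-38857387, 357 kb and 1366 kb from its neighbours, it was 70.1 and 77.8 in WT 0 h and 7.74 and 11.1 in DKO 0 h, but 67.9 and 57.0 against 43.9 and 52.0 at 72 h. At chr14:103868318-103869492 the mean was 48.8 ± 11.3 (SD, n = 4) in WT and 15.1 ± 9.30 (n = 4) in DKO, and at chr14:72699446-72700461 it was 54.7 ± 11.95 and 23.1 ± 6.97. Over all 16 sites the median percentile was 63.5 for WT 0 h, 19.6 for DKO 0 h, 59.4 for WT 72 h and 34.1 for DKO 72 h.

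Of the 5 leading sites higher in DKO, 4 differed more at 72 h than at 0 h. At chr16:43801652-43802721 the percentile was 48.8 and 28.8 in WT 0 h, 63.3 and 75.2 in DKO 0 h, 54.9 and 2.63 in WT 72 h and 87.0 and 78.5 in DKO 72 h, with the WT 72 h replicates far apart. At chr12:55093038-55093990 the mean was 14.0 ± 5.84 (SD, n = 4) in WT and 48.9 ± 22.1 (n = 4) in DKO, where replicate 1 at 72 h stood at 81.8 and replicate 2 at 38.03. At chr3:15194161-15195039 the means were 22.6 ± 11.2 and 52.2 ± 9.01, and at chr11:94265823-94266797 they were 10.3 ± 10.9 and 31.6 ± 8.26. The exception was chr6:12074975-12076089 (71.3 ± 20.6 and 93.3 ± 1.92), with 69.0 and 43.1 in WT 0 h, 90.9 and 93.5 in DKO 0 h, and 86.0 to 95.6 at 72 h. Over all 9 sites the median percentile was 23.2 for WT 0 h, 37.8 for DKO 0 h, 15.0 for WT 72 h and 54.9 for DKO 72 h.

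**Figure D5:**
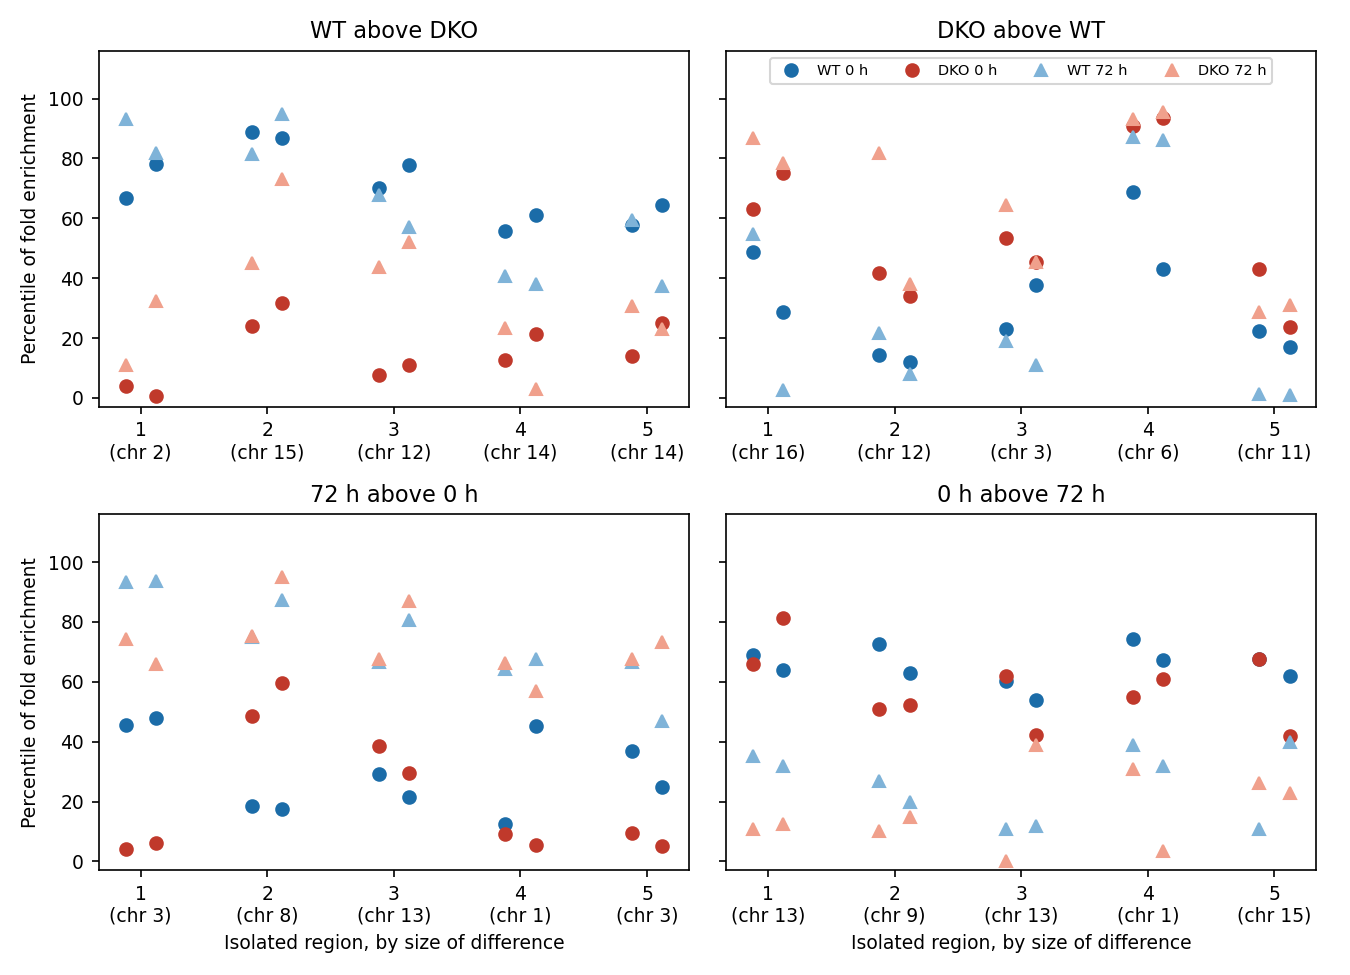
Percentile of fold enrichment (y axis) in the 8 libraries for the 5 isolated sites with the largest difference in each direction of genotype (top) and time (bottom), ordered by size of difference (x axis, with the chromosome). Circles are 0 h and triangles 72 h, replicate 1 to the left and replicate 2 to the right; by choice the groups of 4 do not overlap, and the widest genotype gap is at the first site on chromosome 2 (80.0 in WT, 12.04 in DKO).

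Isolated sites varied between libraries about as much as other constitutive regions. The range of a site's percentile over the 8 libraries had a median of 34.1 points, against 34.7 for the other constitutive regions, and 31 sites ranged over less than 10 points while 149 (19.9%, against 19.1% of all constitutive regions) ranged over more than 50. Spearman's rho across the 748 sites was 0.838 to 0.884 between libraries at 0 h, 0.716 to 0.816 between libraries at 72 h and 0.695 to 0.780 between the times. Sites are not independent replicates, so these are descriptions.

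Among the 5 sites of widest range, 3 are named above, at chromosomes 2, 3 and 16. At chr8:19784001-19785077 replicate 2 was above replicate 1 in all 4 groups, with 62.7 and 94.5 in WT 0 h, 64.3 and 96.4 in DKO 0 h, 60.7 and 96.8 in WT 72 h and 8.87 and 92.9 in DKO 72 h. Neither genotype nor time separated its values. At chr1:180456854-180457843 the percentile was 37.4 and 7.56 in WT 0 h, 1.98 and 6.05 in DKO 0 h, 52.7 and 87.2 in WT 72 h and 17.7 and 29.2 in DKO 72 h, so the WT 72 h libraries were the highest of the 8.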

How the data were processed

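CTCF CUT&RUN peak lists of 8 libraries (4 groups of 2) and an IgG list were analysed. The submitters' processing notes name Bowtie2 2.2.5, FastQC, MACS2 2.1.1 and build mm9, and 1 list per library was deposited. Peak thresholds and the control sample used are not given in the sources used here. In the deposited lists, fold is a ratio of peak to local background; the authors' −log10 p and q values were used in alternatives, and the deposited score was left aside. Coordinates are 1-based.

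Groups and replicate numbers came from the sample titles. Where a list had several peaks in a region, the one of highest fold was taken. Fold was ranked within each library among the constitutive regions (Python 3.11.15, pandas 2.3.3). Regions were tested by exact two-sided permutation of 4 libraries against 4 with Benjamini-Hochberg adjustment. The assignments ran over all 8 libraries and were not kept within genotype or time. The isolated regions, lists and comparisons were chosen with earlier results of these data known. Regions were named by rule: the 5 strongest, weakest, most remote, most variable and most different per direction, the 3 widest, the 3 of widest summit spread, the 3 longest runs and the 3 on either side of the limit.

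On simulated lists the rule found 100 of 100 planted regions among 600. For 72 h above 0 h the comparison found 200 of 200 planted regions among 9363, in a total of 261 called. The simulated replicates differed far less than the real ones. This checks that the code runs as meant and gives no rate of missed or false calls in these data. Libraries of equal replicate number were not treated as pairs, except in the replicate block described with the alternatives. Read depth is unknown, so the precision of a percentile rests on the replicates. Alternatives were another peak threshold, distances, neighbours counted, chromosome X, ranking by −log10 p, log2 fold, a wider gap, a replicate block and leaving out each library. Sequence and gene annotation were not analysed here.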

Additional observations from a re-analysis of the deposited data

Results flagged for a closer look

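A few named isolated sites moved in opposite directions in 2 groups, with both libraries of each group on the same side; the differences were not tested. At chr12:38856406-38857387 the 72 h minus 0 h difference in percentile was -11.5 points in WT and 38.5 points in DKO, a difference of -50 points. At chr3:104861628-104862513 the WT minus DKO difference was 23.4 points at 0 h and -13.8 points at 72 h, a difference of 37.2 points. At chr5:48736731-48737514 it was 1.34 points at 0 h and -15.6 points at 72 h, a difference of 16.9 points. Its 0 h percentiles were 2.69 and 2.96 in WT and 0.919 and 2.06 in DKO, near the bottom of the scale. The direction at 0 h there is small beside the median difference between replicates, 6.92 points in WT 0 h and 7.46 in DKO 0 h. Over all isolated sites, 33 (4.41%) had opposite time directions in WT and DKO, against 4.50% of constitutive regions, and 50 (6.68%) had opposite genotype directions at the 2 times, against 5.84%.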

How the results depend on the processing

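Of 129 values recomputed under the alternatives, 85 stayed within 1.5 times the count or within the spread, and 44 did not; no cause was tested. Without a neighbour within 25 kb there were 1740 isolated regions (18.6% of constitutive, median percentile 47.8), of which 43 (2.47%) were higher in WT, 19 (1.09%) in DKO, 98 (5.63%) at 0 h and 150 (8.62%) at 72 h. With 100 kb there were 253 (2.70%, median percentile 42.3), with 4 (1.58%), 2 (0.791%), 6 (2.37%) and 27 (10.7%) in the same order. The shares over all constitutive regions were 2.38%, 1.91%, 7.13% and 6.81%, so the share higher in WT was near it at 25 kb. With −log10 q of at least 5, the isolated share was 9.41%, the median percentile 46.4, the median width 1058 bp and the median summit spread 123 bp. When regions in 1 list did not count as neighbours the share was 9.73% and the median percentile 45.9. The median percentile, 44.7 as the mean over libraries, was 41.9 when ranked by −log10 p. All 8 summits lay within 100 bp of their median at 426 of the 748 sites. With a gap of at least 10 points between groups, 2 sites were higher in WT, 1 in DKO, 8 at 0 h and 18 at 72 h (over all constitutive regions 0.320%, 0.203%, 1.60% and 2.17%).

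Deviations of equal replicate numbers correlated at 0.00966 to 0.0432 between groups, so no common pairing was seen over all regions. Such a correlation cannot show whether same-numbered libraries shared animals or a batch, which the labels do not state. A replicate block asked only for the same direction in all 4 same-numbered pairs. It gave 89 sites higher in WT (11.9%, against 8.67% over all constitutive regions) and 40 in DKO (5.35%, against 8.62%). By time it gave 76 at 0 h (10.2%, against 15.8%) and 156 at 72 h (20.9%, against 14.4%). The share higher in WT, near that of all constitutive regions in the main count, was above it here.

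Leaving out each library in turn gave 758 to 1113 isolated regions (7.97% to 8.49%), a median percentile of 44.4 to 45.6, 24 to 41 sites higher in WT (3.61% to 4.03% over all constitutive regions), 12 to 19 in DKO (3.23% to 3.70%), 38 to 50 at 0 h (8.86% to 10.2%) and 84 to 115 at 72 h (8.38% to 9.66%). Absent peaks show only that none was listed.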
